A study of Mus musculus with 6 samples.

Results

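Genes of prostaglandin and leukotriene synthesis, and the phospholipase gene Pla2g7, were followed in the epididymal fat of high-fat-fed Eepd1 knockout and wild-type mice. They were the 10 genes Ptgs1, Ptgs2, Ptges, Hpgds, Ptgds, Ptgis, Alox5, Alox5ap, Lta4h and Pla2g7, picked by symbol from 32244 genes in the deposited table, and all 10 were listed there. Bulk messenger RNA of epididymal white adipose tissue, the fat pad beside the epididymis, was sequenced from Eepd1 knockout mice (EKO) and from wild-type mice (WT), with 3 libraries per genotype. Both groups were C57BL/6J mice on a high-fat diet for 3 months, so every animal was diet-fed and there was no lean control. How the knockout was made, the age of the mice and whether each library came from a separate animal are not stated in the labels. The p-values below therefore measure the spread between these libraries, which may be technical.

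Prostaglandins and leukotrienes are short-lived signalling lipids made from arachidonic acid that phospholipases cut out of membranes. In the prostaglandin arm a cyclooxygenase (Ptgs1 or Ptgs2) makes the unstable intermediate prostaglandin H, and a terminal synthase turns it into prostaglandin E (Ptges), prostaglandin D (Hpgds in blood-lineage cells, Ptgds as a secreted lipocalin) or prostacyclin (Ptgis). In the leukotriene arm 5-lipoxygenase (Alox5), helped by its membrane partner FLAP (Alox5ap), makes leukotriene A, which Lta4h hydrolyses to leukotriene B, a chemoattractant for white cells. Pla2g7 encodes a secreted phospholipase that breaks down platelet-activating factor and oxidised phospholipids. In fat, prostaglandin E acting on the Gi-coupled receptor EP3 lowers cyclic AMP in adipocytes and restrains lipolysis, while macrophages and mast cells are sources of prostaglandin D and leukotrienes.

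Libraries held 17215072 to 18330206 counts, and 16121 genes had enough counts to be tested. Levels are library-scaled counts (CPM), adjusted by the trimmed-mean method (TMM), and 3 counts, the floor below which a level cannot be told from absence, equal 0.154 to 0.192 CPM (counting error only). Values of a group are given in the order of replicates 1, 2 and 3. Eepd1 itself stood at 152, 47.7 and 116 CPM in EKO and at 244, 304 and 192 CPM in WT. The sources used here do not say which part of Eepd1 was deleted. All 15 adipocyte markers passed the count filter, and their summed level was 12978 to 22279 CPM in EKO and 28162 to 39450 CPM in WT. The libraries were not alike in their other cells. Summed testis and sperm markers reached 2586 CPM in WT replicate 2 and 137 CPM in EKO replicate 3, against 1.80 to 35.0 CPM in the other 4 libraries. Macrophage markers summed to 7266 to 11598 CPM in EKO and 2158 to 4257 CPM in WT, with WT replicate 2 lowest.

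Hpgds, Alox5ap and Pla2g7 were higher in every EKO library than in any WT library, by 3.55-fold, 3.02-fold and 4.49-fold of the means. Ptgs1 and Ptges were lower in every EKO library, by 1.36-fold and 1.38-fold. Ptgs2, Ptgis, Alox5 and Lta4h had overlapping groups, and Ptgds was near the floor in 4 of 6 libraries. None of the differences passed the edgeR quasi-likelihood test at an adjusted p under 0.05, which called 0 of 16121 genes (0.0%). At an unadjusted p under 0.05 it marked 3 genes as higher (Hpgds, Alox5ap, Pla2g7) and 2 as lower (Ptgs2, Ptges), where 18.9% of all tested genes were marked higher and 13.8% lower. Of the 9 genes tested (all but Ptgds), the groups of 5 did not overlap (55.6%), against 42.8% of all tested genes (25.1% higher, 17.7% lower). That count lies near the background. The DESeq2 Wald test on the same counts called the 5 genes with an unadjusted p under 0.05, against 23.0% of genes (12.0% higher, 11.1% lower), and the authors' deposited table marks 4 of them (Hpgds, Alox5ap and Pla2g7 up, Ptgs2 down) against 10.1% of genes (5.09% up, 5.04% down). Quality-weighted limma-voom called 4 (Hpgds, Alox5ap, Pla2g7, Ptges) against 25.4% (14.8% higher, 10.6% lower). Ptgds had counts in all 6 libraries but did not pass the minimum-count filter of the edgeR test. The median log2 difference of the other 9 genes was 0.02, and that of all tested genes was 0.02.

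**Figure D1:**
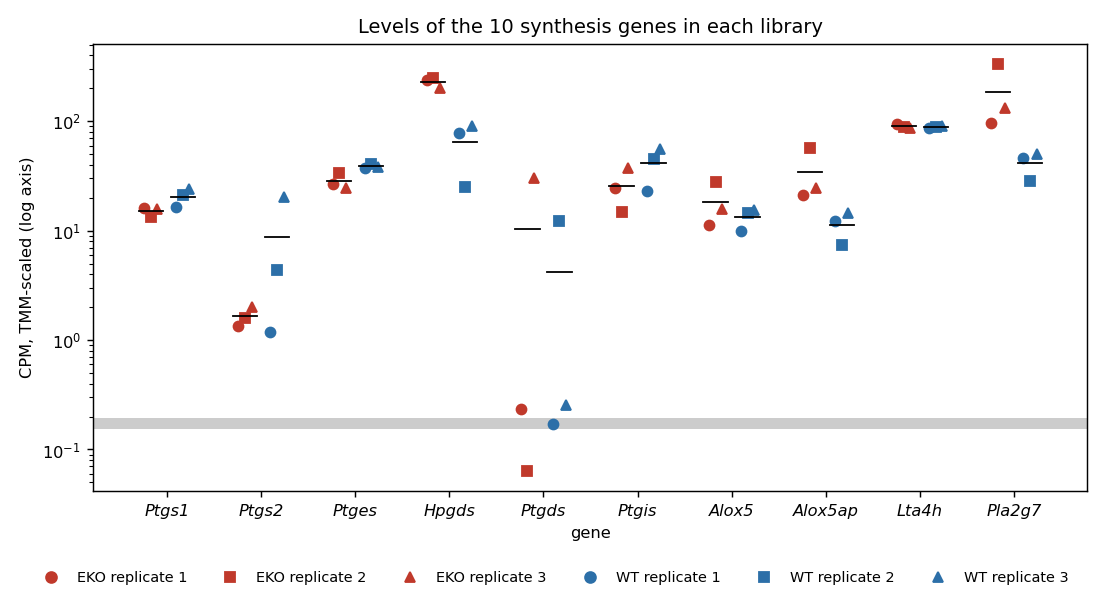
Level of each of the 10 genes in each library (y axis, TMM-scaled CPM on a log axis; red EKO, blue WT; circle, square and triangle are replicates 1, 2 and 3; black lines are group means; the grey band is the level of 3 counts). Hpgds, Alox5ap and Pla2g7 separate upwards in EKO, and Ptgds is above 12 CPM in EKO replicate 3 and WT replicate 2 and at or below 0.257 CPM in the other 4.

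Both cyclooxygenases were expressed at low levels. Ptgs1 (ENSMUSG00000047250, chromosome 2, 36230426 to 36252272, plus strand, GRCm38), the constitutive enzyme, stood at 16.3, 13.2 and 15.8 CPM in EKO and at 16.3, 21.1 and 23.97 CPM in WT. EKO replicate 1 and WT replicate 1 were almost equal, so the groups barely parted, and the log2 difference was -0.44 ± 0.19 (SE, edgeR adjusted p = 0.169).

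Ptgs2 (ENSMUSG00000032487, chromosome 1, 150100031 to 150108227, plus strand), the inducible enzyme, had 23, 25 and 35 counts in EKO and 21, 80 and 399 counts in WT, or 1.36, 1.604 and 2.00 CPM against 1.19, 4.36 and 20.5 CPM. The group means differed 5.25-fold, but WT replicate 1 lay below every EKO library and WT replicate 3 alone held most of the WT signal. With all libraries the log2 difference was -2.39 ± 0.97 (SE, edgeR adjusted p = 0.147). Without WT replicate 3 it was -0.73, with an edgeR adjusted p of 0.457. The DESeq2 adjusted p over 6 libraries was 0.0406. WT replicate 3 was also the library highest in the epididymal secretory gene Crisp1 (11.2 CPM, against 0.00 to 2.17 CPM elsewhere) and in the neutrophil gene S100a9 (3.18 CPM, against 0.295 to 1.52 CPM). The summed epididymis markers were highest in WT replicate 2 (42.9 CPM), with 16.1 CPM in WT replicate 3. The summed neutrophil markers did not single out WT replicate 3 either, at 23.9 CPM against 15.6 to 28.1 CPM in the other 5 libraries. The part of these cells in the Ptgs2 level was not tested.

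The terminal synthases stood in different directions, and none passed the edgeR test. Ptges (ENSMUSG00000050737, chromosome 2, 30889471 to 30929863, minus strand), the inducible microsomal enzyme, stood at 26.5, 33.5 and 24.5 CPM in EKO and at 37.1, 41.1 and 38.1 CPM in WT. Every EKO library was below every WT library by a narrow margin, and the log2 difference was -0.46 ± 0.15 (SE, edgeR adjusted p = 0.0907, DESeq2 adjusted p = 0.0368).

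Hpgds (ENSMUSG00000029919, chromosome 6, 65117293 to 65144908, minus strand), the glutathione-dependent prostaglandin D synthase of macrophages, mast cells and other blood-lineage cells, stood at 238, 249 and 200 CPM in EKO and at 77.4, 24.8 and 91.4 CPM in WT. The EKO libraries lay close together and the WT libraries were spread out, with WT replicate 2 far below the other two. The means were 229 ± 25.6 and 64.5 ± 35.1 CPM (SD, n = 3), a log2 difference of 1.83 ± 0.46 (SE, edgeR adjusted p = 0.0669). Without WT replicate 2 the difference was smaller, 1.39, and its spread was too, so that Hpgds alone of the 10 genes was then called (edgeR adjusted p = 0.0386, with 2.69% of all genes called, 1.96% higher and 0.727% lower).

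Promoter windows are shown for the genes whose groups stood furthest apart, Hpgds and Pla2g7, and for Ptgs2, which is known for responding to cyclic AMP and inflammatory signals. They are RefSeq windows of 300 bases on GRCm38.p6, from 250 bases before to 50 bases after the annotated start, read 5′ to 3′ on the strand of the gene. Capitals mark matches, on either strand, to a PU.1-type motif (GAGGAA, the core bound by a master regulator of macrophage genes), a C/EBP-type motif (TTGCNNAA) and the core of the cyclic AMP response element (TGACG).
Hpgds, chr6:65144681-65144980, minus strand: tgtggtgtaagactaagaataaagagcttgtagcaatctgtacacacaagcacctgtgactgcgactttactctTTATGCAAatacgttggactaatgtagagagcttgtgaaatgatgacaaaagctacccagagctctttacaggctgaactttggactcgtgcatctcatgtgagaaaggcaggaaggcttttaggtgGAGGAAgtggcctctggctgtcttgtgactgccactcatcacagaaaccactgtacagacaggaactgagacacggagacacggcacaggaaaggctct
Pla2g7, chr17:43568201-43568500, plus strand: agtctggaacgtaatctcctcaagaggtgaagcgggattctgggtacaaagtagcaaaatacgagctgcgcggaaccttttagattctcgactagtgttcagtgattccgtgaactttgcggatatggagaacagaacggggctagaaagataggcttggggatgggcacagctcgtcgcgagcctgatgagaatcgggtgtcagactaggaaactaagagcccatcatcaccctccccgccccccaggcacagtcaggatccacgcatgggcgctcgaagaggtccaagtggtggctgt
Ptgs2, chr1:150099781-150100080, plus strand: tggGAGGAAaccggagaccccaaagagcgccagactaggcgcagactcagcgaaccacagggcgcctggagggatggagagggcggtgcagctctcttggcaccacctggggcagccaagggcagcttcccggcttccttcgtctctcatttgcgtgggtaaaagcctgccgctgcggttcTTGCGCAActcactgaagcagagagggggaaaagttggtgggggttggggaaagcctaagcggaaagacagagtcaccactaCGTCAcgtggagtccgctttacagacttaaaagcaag

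The Hpgds window holds 1 PU.1-type and 1 C/EBP-type match, and the Ptgs2 window holds 1 PU.1-type, 1 C/EBP-type and 1 core match, the last downstream of the annotated start. No capitals fall in the Pla2g7 window. Of the 8 genes with a window in the table (all but Ptgis and Alox5ap), 6 held a PU.1-type match, found in 28.3% of 32841 windows genome-wide. A C/EBP-type match was present in 2 of the 8 and in 10.8% of all windows, and a TGACG core in 1 and in 20.8%. The full response element TGACGTCA and the TATA motif TATAAA were in none of the 8, and in 1.79% and 13.6% of all windows. A loose NF-kB-type motif was in 6 of the 8 and in 50.8% of all windows, some of its matches overlapping those of other motifs. These are matches of letters, and no binding was measured.

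Ptgds (ENSMUSG00000015090, chromosome 2, 25466709 to 25470046, minus strand), the lipocalin-type synthase that is abundant in brain membranes and the male genital tract, was a feature of single libraries. It had 4, 1 and 535 counts in EKO and 3, 223 and 5 counts in WT, or 0.236, 0.0641 and 30.6 CPM against 0.170, 12.1 and 0.257 CPM. Both genotypes held 1 high library and 2 at or near the floor, so no difference between genotypes could be read from it. The high libraries, EKO replicate 3 and WT replicate 2, were also the highest in the sperm protamine gene Prm2, at 32.0 and 496 CPM against 0.00 to 7.29 CPM elsewhere, and in the epididymal cystatin gene Cst12, at 2.63 and 4.90 CPM against 0.00 to 0.170 CPM. The order was reversed, since Ptgds was higher in EKO replicate 3 and the testis markers in WT replicate 2. Cst12 did not stand for its list. The summed epididymis markers were 9.89 CPM in EKO replicate 3 and 42.9 CPM in WT replicate 2. They reached 16.1 CPM in WT replicate 3, where Ptgds was at 0.257 CPM. EKO replicate 3 also had the highest summed B cell markers (621 CPM, against 320 to 598 CPM) and hepatocyte markers (209 CPM, against 9.75 to 75.8 CPM). The part of any of these cells in the Ptgds level was not tested.

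Ptgis (ENSMUSG00000017969, chromosome 2, 167191805 to 167240604, minus strand), which makes prostacyclin in vessel walls and stromal cells, stood at 24.4, 14.9 and 37.2 CPM in EKO and at 23.2, 45.1 and 55.6 CPM in WT. The groups overlapped, with a log2 difference of -0.70 ± 0.42 (SE, edgeR adjusted p = 0.290), and -0.06 when libraries were weighted by quality in limma-voom. Across libraries it followed the mesothelial markers, the genes of the cell layer covering the fat pad, which summed to 99.3, 48.0 and 278 CPM in EKO and to 171, 474 and 452 CPM in WT. Both were lowest in EKO replicate 2 and highest in WT replicates 2 and 3. Endothelial markers, by contrast, summed to 764 to 1405 CPM in EKO and 1883 to 2234 CPM in WT with no overlap. The part of mesothelial and vessel cells in the Ptgis level was not tested. In bulk tissue, fewer cells of a type and less RNA per cell cannot be told apart.

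**Figure D2:**
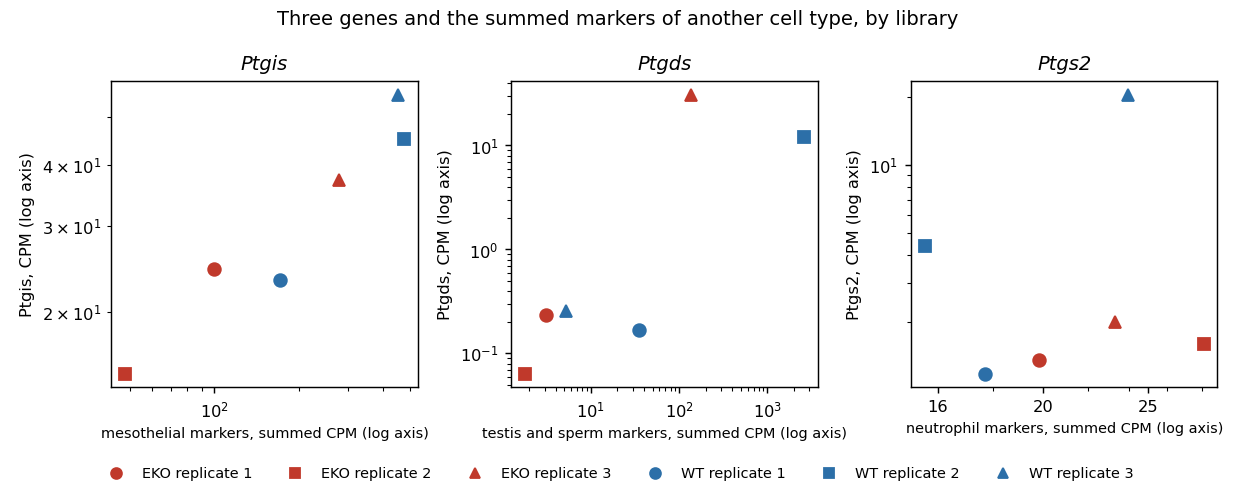
Ptgis, Ptgds and Ptgs2 (y axes, CPM, log axes) against the summed CPM of mesothelial, testis and sperm, and neutrophil markers (x axes, log axes), 1 point per library (red EKO, blue WT; circle, square and triangle are replicates 1, 2 and 3). Ptgis rises with the mesothelial sum from EKO replicate 2 to WT replicates 2 and 3, Ptgds is high where testis markers are, in EKO replicate 3 and WT replicate 2, and Ptgs2 in WT replicate 3 stands apart at a neutrophil sum like that of other libraries.

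In the leukotriene arm the enzyme and its partner differed. Alox5 (ENSMUSG00000025701, chromosome 6, 116410077 to 116461178, minus strand) stood at 11.4, 28.1 and 15.7 CPM in EKO and at 9.89, 14.5 and 15.3 CPM in WT. EKO replicate 2 was high and the other libraries of both genotypes were mixed, for a log2 difference of 0.47 ± 0.37 (SE, edgeR adjusted p = 0.395), or 0.02 without EKO replicate 2. Alox5ap (ENSMUSG00000060063, chromosome 5, 149264767 to 149288153, plus strand) stood at 21.3, 56.8 and 24.7 CPM in EKO and at 12.2, 7.35 and 14.4 CPM in WT.

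Every EKO library was above every WT library for Alox5ap, with EKO replicate 2 more than any other. Its log2 difference was 1.59 ± 0.45 (SE, edgeR adjusted p = 0.0747, DESeq2 adjusted p = 0.00898), and 0.99 without EKO replicate 2 (edgeR adjusted p = 0.234). Per length of exon, Alox5ap exceeded Alox5 in all libraries, by 5.41, 5.84 and 4.54 times in EKO and 3.57, 1.46 and 2.73 times in WT. That ratio was higher in each EKO library than in each WT library (2.04-fold of the means). With 3 libraries against 3, the smallest two-sided exact permutation p is 0.1, so ratios within a library are given as values.

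Lta4h (ENSMUSG00000015889, chromosome 10, 93453411 to 93484875, plus strand), which completes leukotriene B synthesis and is made by most cells, hardly varied. It stood at 93.6, 89.5 and 86.2 CPM in EKO and at 87.0, 89.3 and 89.7 CPM in WT, the tightest spread among the 10 genes. The log2 difference was 0.02 ± 0.09 (SE, edgeR adjusted p = 0.897), and its sign turned under other scalings, filters and DESeq2 (-0.08 to -0.02). The groups overlapped fully.

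Pla2g7 (ENSMUSG00000023913, chromosome 17, 43568098 to 43612201, plus strand), the platelet-activating factor acetylhydrolase secreted by macrophages, had the largest log2 difference of the genes whose groups did not overlap. It stood at 97.3, 332 and 131 CPM in EKO and at 46.3, 28.3 and 49.9 CPM in WT. Every EKO library was above every WT library, and EKO replicate 2 was far above the other EKO libraries. The means were 187 ± 127 and 41.5 ± 11.6 CPM (SD, n = 3), a log2 difference of 2.17 ± 0.50 (SE, edgeR adjusted p = 0.0641, DESeq2 adjusted p = 0.000388). Without EKO replicate 2 it was 1.43, a 2.70-fold difference in place of 4.49-fold, with an edgeR adjusted p of 0.184.

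**Figure D3:**
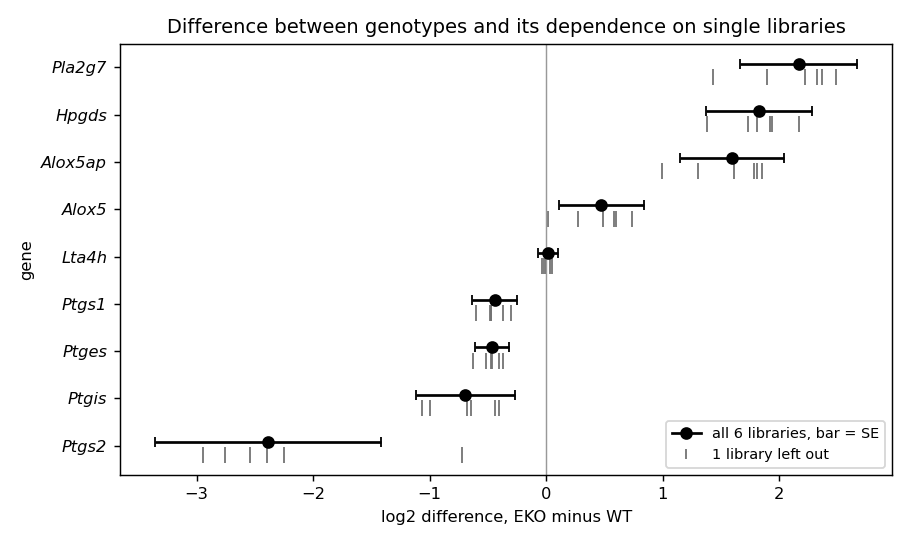
Log2 difference between EKO and WT (x axis) for the 9 genes that could be tested; black points and bars are the edgeR estimate and its SE over 6 libraries, grey ticks the estimate with each library left out in turn. Hpgds, Alox5ap and Pla2g7 stay above 0 in each of these fits, Ptgs2 moves from -2.39 to -0.73 without WT replicate 3, and Lta4h stays beside 0.

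The 3 genes higher in every EKO library stood higher together with macrophage markers, and with mast cell and stromal markers too. In EKO, 12 of 15 macrophage markers were above WT at an unadjusted p under 0.05, against 18.9% of all genes (edgeR, 0 at an adjusted p under 0.05). The other 3 had lower means in EKO and did not pass that threshold. They were Cd163 (59.1 ± 27.9 against 98.2 ± 11.4 CPM, groups not overlapping), Lyve1 (40.8 ± 13.2 against 58.9 ± 10.003 CPM) and Aif1 (8.24 ± 1.77 against 18.9 ± 21.2 CPM). Aif1 stood at 6.72, 7.83 and 10.2 CPM in EKO and at 5.88, 43.3 and 7.44 CPM in WT. Its lower EKO mean rests on WT replicate 2. The most abundant, lysozyme (Lyz2), stood at 2573, 5639 and 3132 CPM in EKO and at 1532, 641 and 1502 CPM in WT. Mast cell markers, from another known source of Hpgds, summed to 253, 1004 and 505 CPM in EKO and to 137, 153 and 161 CPM in WT. Adipocyte progenitor and fibroblast markers also summed higher in every EKO library (7713 to 10836.5 CPM, against 4285 to 5762 CPM in WT). The part of macrophages, mast cells and these stromal cells in the levels of the 3 genes was not tested. Divided by the summed level of the 15 macrophage markers, Alox5ap stood at 2.92, 4.89 and 3.40 per 1000 CPM in EKO and at 3.03, 3.41 and 3.39 per 1000 CPM in WT, so the genotypes overlapped fully. Hpgds stood at 32.7, 21.4 and 27.5 per 1000 CPM in EKO and at 19.2, 11.5 and 21.5 per 1000 CPM in WT, with an overlap at EKO replicate 2. Pla2g7 stood at 13.4, 28.6 and 18.02 per 1000 CPM in EKO and at 11.5, 13.1 and 11.7 per 1000 CPM in WT. Its groups did not overlap on that scale, by a margin of 13.4 to 13.1, and overlapped when lipid-associated macrophage markers were the divisor (3.54, 8.67 and 4.87 against 3.27, 3.29 and 3.90 per 1000 CPM). Lyz2 made up 5639 of the 11598 CPM of the macrophage sum in EKO replicate 2 and 641 of 2158 CPM in WT replicate 2. Ratios without Lyz2 were not computed, so how far these overlaps and margins rest on that gene was not tested.

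The lipid-associated list depends on Lpl, which is on the adipocyte list too and made up 8259, 7067 and 6268 CPM of its sums of 14184, 8616 and 12795 CPM in WT. Without Lpl, a divisor chosen after the data were seen, the direction turned for all 3 genes. Pla2g7 then stood at 5.18, 10.8 and 6.55 per 1000 CPM in EKO and at 7.82, 18.3 and 7.65 per 1000 CPM in WT, with overlap. Hpgds (12.7, 8.09 and 10.005 against 13.1, 16.03 and 13.999 per 1000 CPM) and Alox5ap (1.13, 1.85 and 1.24 against 2.06, 4.75 and 2.21 per 1000 CPM) were then lower in every EKO library. Whether these genes are higher or lower per macrophage transcript therefore depends on the markers used. The sum without Lpl was itself 18803, 30734 and 20000 CPM in EKO and 5925, 1549 and 6527 CPM in WT. A gene of equal CPM in both genotypes comes out lower in EKO on it, as Lta4h did by 7.05-fold of the mean ratios.

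Alox5 was lower relative to macrophage markers. It was 1.56, 2.42 and 2.16 per 1000 CPM of macrophage markers in EKO and 2.45, 6.74 and 3.59 per 1000 CPM in WT, lower in every EKO library. The groups overlapped with all lipid-associated markers as divisor, and did not without Lpl. Ptgs1, Ptgs2, Ptges, Ptgis and Lta4h were also lower in EKO on that scale, by 3.51-fold, 11.9-fold, 3.76-fold, 4.07-fold and 2.59-fold of the mean ratios. Lta4h, whose CPM hardly differed, thus had a larger fold on that scale than Alox5 (2.08-fold). The macrophage sum itself was 7266 to 11598 CPM in EKO and 2158 to 4257 CPM in WT. A gene of equal CPM in both genotypes therefore comes out lower in EKO when divided by it.

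**Figure D4:**
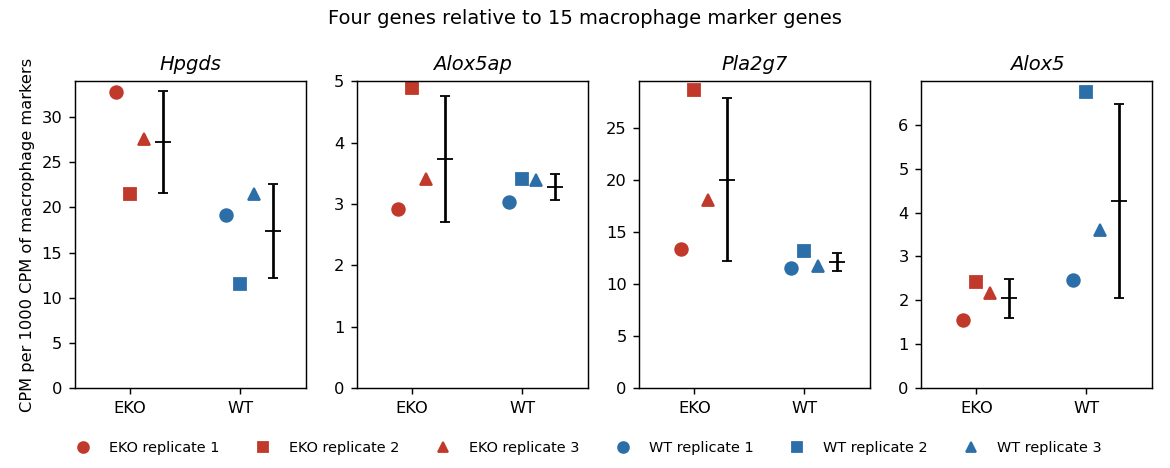
Hpgds, Alox5ap, Pla2g7 and Alox5 in each library as CPM per 1000 CPM of 15 summed macrophage markers (y axes start at 0; red EKO, blue WT; circle, square and triangle are replicates 1, 2 and 3; black marks are the mean and SD of 3 libraries). Alox5ap overlaps fully between the genotypes, Pla2g7 parts narrowly, and Alox5 is lower in EKO; without Lpl in a lipid-associated divisor Hpgds, Alox5ap and Pla2g7 turn lower.

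Compared per kilobase of exon, the order of the genes was not the same in both genotypes. In WT fat Ptgis (16.1 ± 6.43 CPM per kb), Lta4h (14.5 ± 0.238 CPM per kb), Pla2g7 (14.3 ± 3.99 CPM per kb), Hpgds (10.04 ± 5.46 CPM per kb), Ptges (9.87 ± 0.527 CPM per kb) and Alox5ap (7.98 ± 2.55 CPM per kb) came first by mean level (SD, n = 3). The spreads of Ptgis, Lta4h and Pla2g7 overlapped, while Lta4h was above Ptges and Alox5ap in every WT library. Ptgs1 (5.27 ± 0.994 CPM per kb), Alox5 (3.23 ± 0.713 CPM per kb), Ptgds (2.54 ± 4.18 CPM per kb) and Ptgs2 (1.89 ± 2.26 CPM per kb) followed. In EKO fat Pla2g7 (64.3 ± 43.6 CPM per kb), Hpgds (35.7 ± 3.99 CPM per kb) and Alox5ap (24.1 ± 13.8 CPM per kb) came before Lta4h (14.7 ± 0.608 CPM per kb), and the spread of Pla2g7 and Alox5ap covered Hpgds. Ptgis (9.94 ± 4.34 CPM per kb) and Ptges (7.16 ± 1.20 CPM per kb) came next in EKO, and Ptgs2 was last by mean at 0.361 ± 0.0711 CPM per kb. Ptgds, at 0.143, 0.0389 and 18.6 CPM per kb in EKO, was below Ptgs2 in EKO replicates 1 and 2.

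Some members overlap other annotated genes, and without strand information reads cannot be assigned between overlapping genes. The overlapping genes had few counts, at most 3.28 CPM on average (Gm17147, opposite Hpgds). For Pla2g7 the opposite gene 1700071M16Rik averaged 2.91 CPM, and for Alox5ap Gm19719 averaged 1.34 CPM.

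Each gene had its nearest matches among 159 marker genes of at least 1 CPM, by Pearson r of log2 levels over the 6 libraries. Hpgds matched the macrophage genes Cd68 and Adgre1 (both r = 0.998). Alox5ap matched the stromal marker Ly6a (0.992) and the macrophage gene Spp1 (0.988), and Pla2g7 matched Itgam (0.98) and Ly6a (0.979). Ptgis matched the mesothelial genes Upk1b and Bnc1 (both 0.97), and Ptgs1 the mesothelial genes Msln (0.918) and Muc16 (0.902). Ptges matched Gata2 (0.932) and the red cell gene Slc4a1 (0.918). Gata2 is on the mast cell list, of whose 12 genes 10 were higher in every EKO library, but Gata2 was lower in every one. Ptgs2 matched S100a9 (0.943) and Crisp1 (0.868), and Ptgds matched Cst12 (0.941) and the B cell gene Pax5 (0.901). Alox5 matched the platelet gene Itga2b (0.928) and the stromal marker F3 (0.925). Lta4h matched none closely, with Mertk at 0.586 and Lpl at 0.374. The 6 points share library composition and genotype, and much of the transcriptome varied together, so these are descriptions of the libraries.

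The rest of the pathway was read from 101 other genes listed by role, of which 94 were in the table and 75 could be tested. The edgeR test called 0 of them at an adjusted p under 0.05. At an unadjusted p under 0.05, 22 stood higher and 14 lower in EKO, against 18.9% and 13.8% of all genes, and their median log2 difference was 0.10. Counts at that threshold in each list below are to be read against the same shares of all genes. DESeq2 called 20 higher and 12 lower, against 12.0% and 11.1% of all genes.

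The arachidonate-releasing enzymes went in both directions. Pla2g16, the phospholipase that supplies arachidonate in adipocytes, stood at 261, 77.7 and 196 CPM in EKO and at 579, 605 and 428 CPM in WT (log2 difference -1.59 ± 0.43, edgeR adjusted p = 0.0716). Pla2g15, a lysosomal phospholipase, stood at 191, 223 and 146 CPM in EKO and at 110, 78.1 and 117 CPM in WT (0.87 ± 0.22, adjusted p = 0.0669). The calcium-independent phospholipase Pla2g6 was lower in EKO (30.2 ± 5.41 against 57.3 ± 17.8 CPM). Of 15 tested genes in that list 4 were higher and 5 lower at an unadjusted p under 0.05, and the groups of all 3 named genes did not overlap.

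Enzymes that load arachidonate back onto lipids also went in both directions. Acsl4, the acyl-CoA synthetase that prefers arachidonate, was higher in every EKO library (log2 difference 0.81 ± 0.15), as was Acsl5 (0.45 ± 0.12). Acsl1, the main synthetase of adipocytes, was lower (672 ± 177 against 1526 ± 205 CPM, log2 difference -1.18 ± 0.26). Their edgeR adjusted p was 0.0628, 0.0715 and 0.0628, in that order. In that list 5 of 9 tested genes were higher and 1 lower at an unadjusted p under 0.05.

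Of 8 further prostanoid synthase genes tested, 5 had a higher and 3 a lower mean log2 level in EKO. Akr1b8, an aldo-keto reductase, stood at 145, 756 and 274 CPM in EKO and at 37.5, 25.7 and 49.4 CPM in WT (log2 difference 3.38 ± 0.66, edgeR adjusted p = 0.0628), Akr1b3, a related reductase able to make prostaglandin F, at 231 ± 58.5 against 135 ± 1.27 CPM, and the carbonyl reductase Cbr3 at 36.1 ± 20.5 against 9.59 ± 0.408 CPM. None of these groups overlapped. At an unadjusted p under 0.05, 4 of 8 tested genes of that list were higher and 1 lower.

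Leukotriene C synthesis and its later steps went in both directions. Ltc4s, which conjugates leukotriene A with glutathione, stood at 3.07, 4.49 and 5.66 CPM in EKO and at 10.1, 5.72 and 7.85 CPM in WT (log2 difference -0.84 ± 0.33, edgeR adjusted p = 0.139). The microsomal glutathione transferase Mgst3 was lower (81.1 ± 19.1 against 199 ± 31.2 CPM), and the dipeptidase Dpep2, which trims leukotriene D to leukotriene E, was higher at a low level (3.07 ± 0.458 against 0.883 ± 0.489 CPM). Soluble epoxide hydrolase Ephx2, which hydrolyses epoxides of arachidonate, was lower (101 ± 56.2 against 327 ± 141 CPM, log2 difference -1.69 ± 0.49), while the epoxygenases Cyp2j6 and Cyp2j9 had overlapping groups. In these lists 1 of 6 leukotriene genes was higher and 2 lower at an unadjusted p under 0.05, and 0 of 10 lipoxygenase and epoxygenase genes were higher and 2 lower.

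Breakdown and export genes held a large difference. Ptgr1, the reductase that inactivates leukotriene B and reduces prostaglandin metabolites, stood at 31.6, 173 and 66.7 CPM in EKO and at 12.9, 9.97 and 14.9 CPM in WT (log2 difference 2.84 ± 0.62, edgeR adjusted p = 0.0629). Its relative Ptgr2 was lower (40.0 ± 6.32 against 63.6 ± 7.94 CPM, -0.67 ± 0.16), and Abcc4, a transporter that exports prostaglandins, was higher (49.1 ± 24.3 against 21.2 ± 0.968 CPM, 1.21 ± 0.33). The groups of all 3 genes did not overlap, and 3 of 7 tested genes in that list were higher and 1 lower at an unadjusted p under 0.05.

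Around platelet-activating factor, the lipid that Pla2g7 degrades, the receptor Ptafr stood at 222, 218 and 193 CPM in EKO and at 120, 49.7 and 139 CPM in WT (log2 difference 1.03 ± 0.36, edgeR adjusted p = 0.111). The intracellular hydrolase Pafah2 was higher by a small margin (26.1 ± 2.51 against 18.8 ± 0.920 CPM), and the subunit Pafah1b3 was higher at a low level (9.27 ± 1.52 against 4.55 ± 1.43 CPM). Of 7 tested genes 3 were higher and 1 lower at an unadjusted p under 0.05.

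Receptors of both arms were measured. Ptger3, which encodes EP3, stood at 27.9, 8.85 and 18.6 CPM in EKO and at 66.9, 53.5 and 25.5 CPM in WT, overlapping at EKO replicate 1 and WT replicate 3 (log2 difference -1.39 ± 0.50, edgeR adjusted p = 0.116). Ptgir, the Gs-coupled prostacyclin receptor, stood at 14.4, 50.5 and 23.5 CPM in EKO and at 11.0, 5.77 and 11.8 CPM in WT (1.63 ± 0.51, adjusted p = 0.0910), and Ptgfrn, a partner of the prostaglandin F receptor, was higher (176 ± 44.1 against 97.0 ± 25.2 CPM). The leukotriene receptors Cysltr1 (15.8 ± 3.25 against 13.9 ± 2.87 CPM) and Ltb4r1 (1.68 ± 0.844 against 2.16 ± 0.595 CPM) and the chemerin and resolvin receptor Cmklr1 (114 ± 12.6 against 121 ± 13.7 CPM) had overlapping groups. At an unadjusted p under 0.05, 2 of 8 genes of the prostanoid receptor list were higher and 1 lower, near the 18.9% and 13.8% of all genes. The higher ones were Ptgir and the partner Ptgfrn. At that threshold 0 of 5 leukotriene and lipoxin receptor genes differed. The adipocyte marker sum was lower and the macrophage marker sum higher in every EKO library than in any WT library, and their part in the pathway values was not tested.

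**Figure D5:**
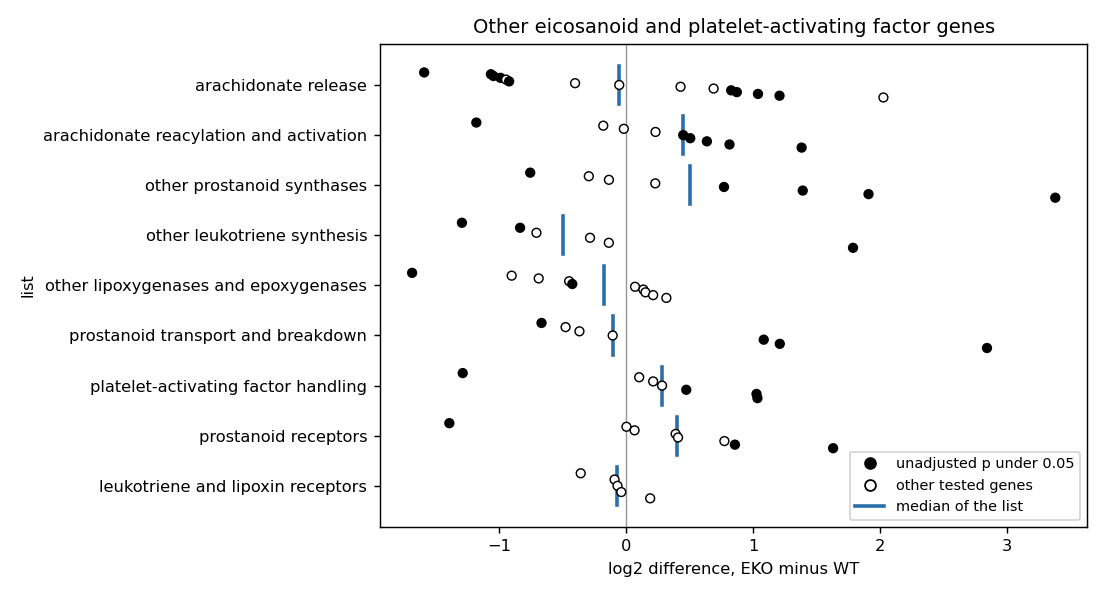
Log2 difference between EKO and WT (x axis) of the 75 other tested genes by role, 1 point per gene (filled where the unadjusted edgeR p was under 0.05), with a blue line at the median of each list. Akr1b8 at 3.38 and Ptgr1 at 2.84 lie furthest to the right, and the 5 leukotriene and lipoxin receptor genes lie near 0.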

How the data were processed

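Bulk RNA-seq of 6 libraries was analysed, 3 per genotype, grouped and numbered by the labels. TRIzol RNA went into an mRNA-seq kit, per the labels' protocols. The submitters' processing notes name GRCm38; aligner, counter and strandedness: not given in the sources used here. The authors deposited raw read counts per gene, per the file headers, beside a mean signal, a fold change (ratio), its log2 form and p-values, raw and adjusted. The authors' deposited table marks genes with an adjusted p under 0.05 and a log2 fold change past 1.

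Genes were filtered with filterByExpr, scaled with TMM and tested with the edgeR 4.0.16 quasi-likelihood F test (R 4.3.3), genotype as sole term, Benjamini-Hochberg adjusted over all 16121 genes. SEs are the log2 difference divided by the square root of F. Fits were tested on simulated data. Exon lengths are unions over GENCODE vM21. Pearson r used log2(CPM + 0.1). Alternatives were other scalings and filters, DESeq2 1.42.0, limma 3.58.1 voom, a replicate block and each library left out. Leaving out EKO replicate 3 and WT replicate 2 together, and leaving Lpl out of the lipid-associated macrophage sum, were added after the data were seen. No pair of libraries was a duplicate (lowest chi-square over its degrees of freedom 20.6).

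The genes and lists were chosen with earlier results of these data known. Named pathway genes are the 3 per list with the smallest p at 1 CPM or more; other genes named were chosen after their values were seen, as were the lists' single marker genes.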

Additional observations from a re-analysis of the deposited data

How the results depend on the processing

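The count of called genes was 0 in the edgeR test and depended on the tool: 3449 with DESeq2 and 4101 with quality-weighted limma-voom, and 0 to 443 with 1 library left out, the highest without WT replicate 2. The count among the 10 genes was 5 with DESeq2, 4 with quality weights and 0 to 1 with 1 library left out; among the other pathway genes it was 32, 29 and 0 to 2. The other scalings, filters, unweighted limma-voom and the omission of both EKO replicate 3 and WT replicate 2 called 0. Under the replicate block the counts were also 0, 0 and 0. Replicate numbers did not pair the libraries: deviations of same-numbered libraries correlated at 0.292, -0.31 and -0.339, and 2 of 6 libraries correlated best with their own number. Lta4h, never called, changed sign with DESeq2 size factors (-0.0280), library totals (-0.0819), upper-quartile factors (-0.0755), no count filter (-0.0203), a 1 CPM filter (-0.0239), the DESeq2 test (-0.0183) and without both EKO replicate 3 and WT replicate 2 (-0.0188), and ranged from -0.0311 to 0.0509 with 1 library left out. The other 8 tested genes kept their sign in all 16 alternatives. Leave-one-out estimates spanned 0.99 to 1.85 for Alox5ap, 1.39 to 2.17 for Hpgds, 1.43 to 2.49 for Pla2g7 and -2.94 to -0.73 for Ptgs2. The wide spread at 3 libraries per genotype limits what single genes can show. With lipid-associated markers without Lpl as divisor, added after the data were seen, the log2 differences of the ratios turned to -0.50 for Hpgds, -1.02 for Alox5ap and -0.53 for Pla2g7.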

Other observations

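Some genes of the pathway were looked at after their values were seen. Tbxas1, the thromboxane synthase of platelets and macrophages, stood at 154, 170 and 126 CPM in EKO and at 73.3, 24.3 and 74.0 CPM in WT. Without WT replicate 2 it was called by edgeR, with 2.69% of all genes called (1.96% higher, 0.727% lower). Without both EKO replicate 3 and WT replicate 2, edgeR called 0 of the listed pathway genes. Pla2g4a, the cytosolic phospholipase that starts most stimulated eicosanoid synthesis, stood at 20.1, 52.6 and 27.4 CPM in EKO and at 14.0, 14.8 and 19.9 CPM in WT, with EKO replicate 2 highest and EKO replicate 1 just above the highest WT library. Alox15, the lipoxygenase known from resident peritoneal macrophages of mice, stood at 7.37, 0.834 and 19.96 CPM in EKO and at 1.70, 18.2 and 18.6 CPM in WT, and the groups overlapped. No lipid was measured in these files.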
